A study of Mus musculus with 14 samples.

Results

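The genes of MHC class II antigen presentation were followed here through 14 lists of transcription factor (TF) binding sites from cells on the way to blood. They are 8 of the 21774 protein-coding genes that RefSeq annotates on the mouse genome (GRCm38): Ciita, Rfx5, H2-Aa, H2-Ab1, H2-Eb1, Cd74, H2-DMa and H2-DMb1. A peak was assigned to a gene when it overlapped the annotated gene span extended by 15 kb on each side, and a peak shared by neighbouring class II genes of chromosome 17 was counted once. Of 158488 peaks, 75 met this rule. The rule used the identity of the genes and no peak value, but the genes were chosen with earlier results of these data known.

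Each list came from chromatin immunoprecipitation with sequencing (ChIP-seq) with 1 antibody in 1 sorted population of cells derived from a strain 129 mouse embryonic stem cell line that carries a Brachyury (Bry) GFP reporter. Mesoderm (MES, Bry:GFP+ and Flk1-) was profiled for C/EBPβ and ELK4, hemangioblasts (HB, Bry:GFP+ and Flk1+) for C/EBPβ and GATA2, and hemogenic endothelium (HE, Bry:GFP+, Tie2+, Kit+ and CD41-) for C/EBPβ. Hematopoietic progenitors (HP, CD41+) were profiled for C/EBPβ, GATA1, GATA2, GFI1B, RUNX1 and PU.1, and macrophages (MAC, CD11b+), grown by terminal differentiation of CD41+ cells, for C/EBPβ, RUNX1 and PU.1. All populations were made in culture from 1 cell line, and the labels name no inflammatory stimulus. Every factor and stage had 1 list and no replicate, so no difference between lists could be tested, and peaks were 400 bp wide with no score or height. The authors set the peak threshold of each list by eye and the lists held between 72 (MAC RUNX1) and 82866 (MAC PU.1) peaks, so the absence of a peak in a short list does not show an absence of binding. The lists hold no expression values, and the identity of the populations could not be checked against marker genes.

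MHC class II molecules present peptides from taken-up material to CD4+ T cells, and macrophages, dendritic cells and B cells are the main cells that carry them. CIITA is the coactivator on which their transcription depends. It does not bind DNA itself but docks on a complex of RFX, CREB and NF-Y that sits on the X and Y boxes of class II promoters. Ciita has alternative promoters that are used by different cell types, and class II genes and Ciita are strongly induced by interferon-γ in macrophages.

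Peaks at the class II genes were found in 4 of the 14 lists. MAC PU.1 held 47 of them, MAC C/EBPβ 22, HP PU.1 5 and HP GFI1B 1. None of the 8 genes had a peak in the 5 lists of MES, HB and HE, which together held 2645 peaks. The background for these lists was low, since at least 1 peak lay in the same window of 5.75% of coding genes for MES C/EBPβ, 4.10% for MES ELK4, 3.70% for HB C/EBPβ, 0.335% for HB GATA2 and 0.579% for HE C/EBPβ. With 8 genes, a count of 0 is near such a background. The same holds for HP C/EBPβ (13.1% of coding genes), HP GATA1 (1.54%), HP GATA2 (2.91%), HP RUNX1 (6.81%) and MAC RUNX1 (0.404%), in which the 8 genes also had no peak. HP GFI1B had a peak at 1 of the 8 genes, H2-DMa, against 10.5% of coding genes.

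**Figure D1:**
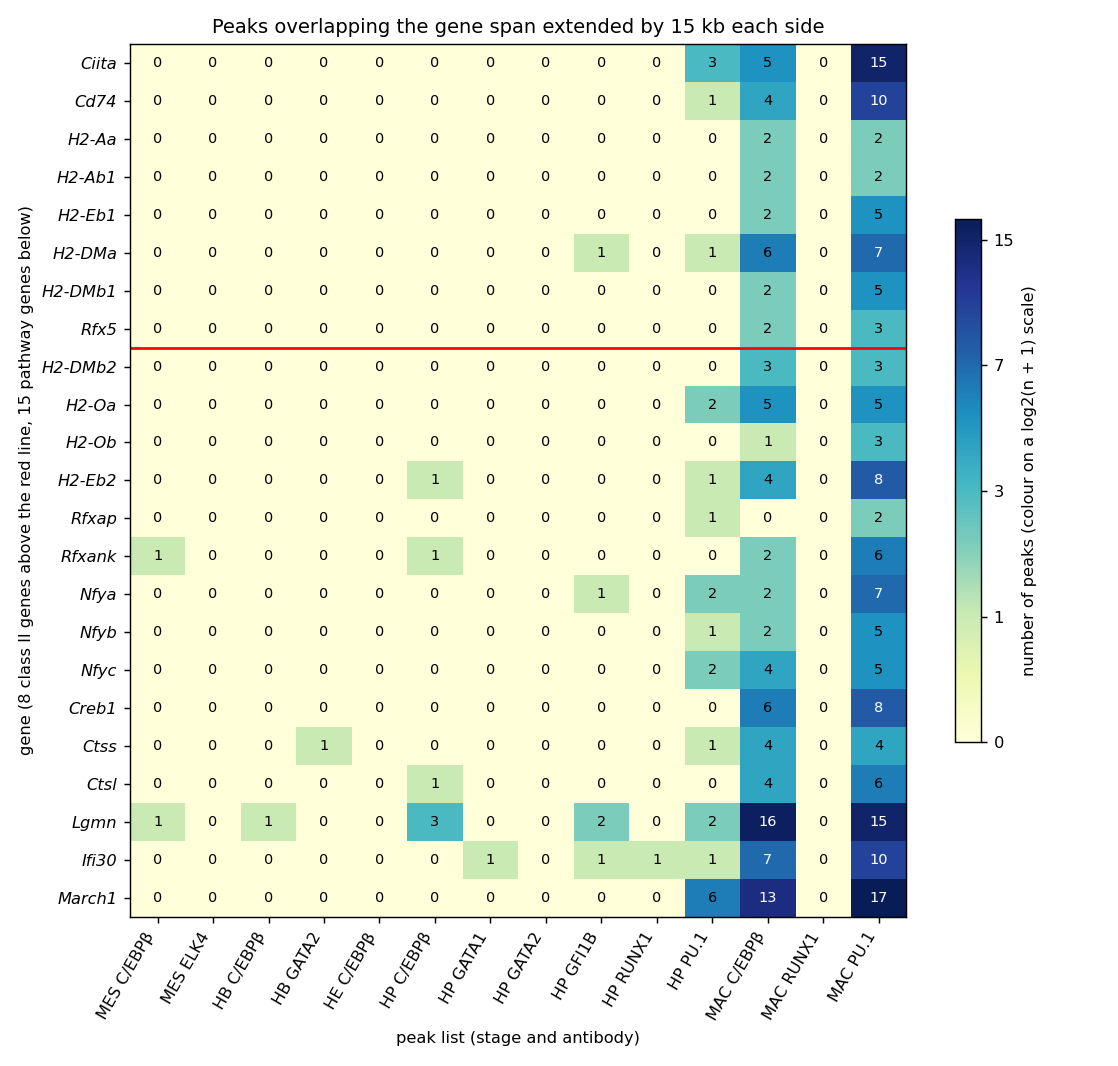
Number of peaks overlapping each gene span extended by 15 kb, for the 8 class II genes (above the red line) and 15 further genes of the pathway (below), in columns for the 14 lists, with colour on a log2(n + 1) scale. All 8 class II genes have peaks in MAC PU.1 and MAC C/EBPβ, 3 have peaks in HP PU.1, and the columns of MES, HB and HE are at 0 for these 8 genes.

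In HP, PU.1 occupied the windows of 3 of the 8 genes, Ciita with 3 peaks, Cd74 with 1 and H2-DMa with 1, where 34.8% of coding genes had a peak. In MAC, PU.1 occupied all 8 windows (77.6% of coding genes) and C/EBPβ also occupied all 8 (71.2% of coding genes). Both factors had a peak in the window of 68.5% of coding genes, so presence alone sets the class II genes little apart. The median number of MAC PU.1 peaks was 5 at these genes (from 2 to 15) and 3 over all coding genes. Per 10 kb of window the medians were 1.29 and 0.533 MAC PU.1 peaks. For MAC C/EBPβ the median was 2 peaks in both sets, and 0.561 against 0.301 peaks per 10 kb.

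The genes differed among themselves. Ciita, with 15 MAC PU.1 peaks, was matched or exceeded by 3.72% of coding genes, and its density of 1.85 peaks per 10 kb by 5.78%. Cd74 had 10 MAC PU.1 peaks in a much shorter window, a count reached by 10.2% of coding genes. Its density of 2.58 peaks per 10 kb was reached by 1.21%. H2-DMa followed with 7 peaks, H2-Eb1 and H2-DMb1 with 5 each, and Rfx5 with 3. The genes for the I-A chains, H2-Aa and H2-Ab1, had 2 MAC PU.1 peaks each, a count that 67.7% of coding genes reach. Their densities of 0.570 and 0.553 peaks per 10 kb were reached by 47.6% and 48.7%. The order by window was different for MAC C/EBPβ, where H2-DMa led with 6 peaks, Ciita had 5, Cd74 4, and the remaining 5 genes 2 each. By closest coding start, H2-DMa, Ciita and Cd74 had 4 MAC C/EBPβ peaks each. At 1.21 MAC C/EBPβ peaks per 10 kb, the density at H2-DMa was reached by 5.07% of coding genes, and its count of 6 by 13.2%. As no list had a replicate, neighbouring counts in these orders cannot be told apart.

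**Figure D2:**
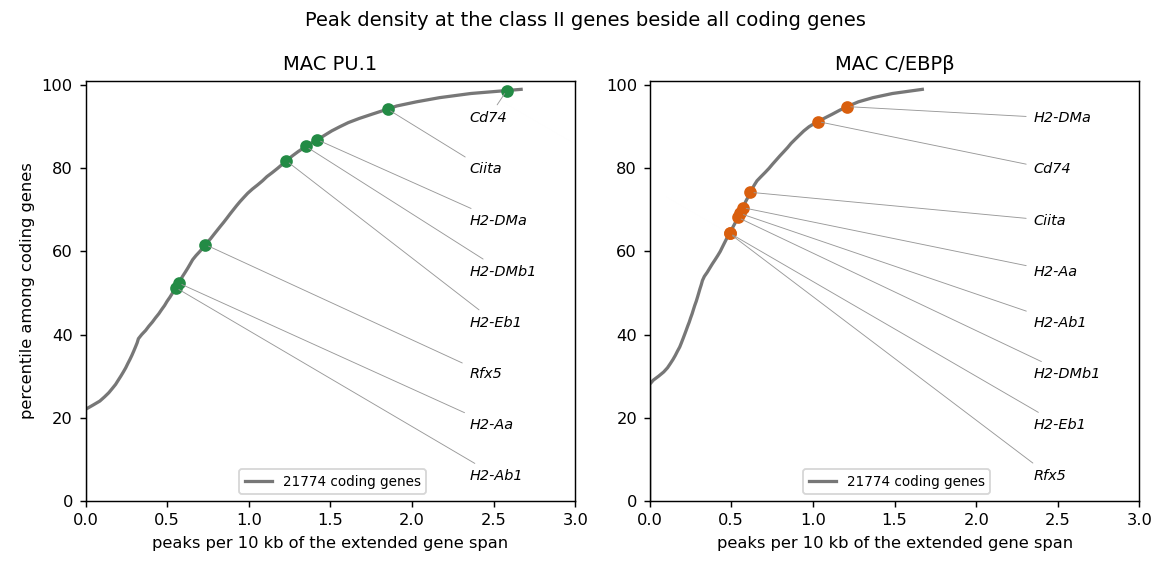
Percentile among 21774 coding genes (vertical axis) against peaks per 10 kb of the extended gene span (horizontal axis) for MAC PU.1 and MAC C/EBPβ, with the 99 lowest percentiles of all coding genes as a grey line and the class II genes as points. Cd74 at 2.58 and Ciita at 1.85 peaks per 10 kb are the highest of the 8 for PU.1, H2-Ab1 at 0.553 is the lowest, and H2-DMa at 1.21 is the highest for C/EBPβ.

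Ciita, the coactivator gene, had the most MAC PU.1 and HP PU.1 peaks of the 8 when counted in the extended windows. By closest coding start, Ciita, Cd74 and H2-DMa had 1 HP PU.1 peak each. The gene lies on the forward strand of chromosome 16 (chr16:10480014-10531064) and curated transcripts start at 10480072, 10488178 and 10489781, in the order of the known promoters I, III and IV. MAC PU.1 had a peak centre near each of them, 286 bp upstream of the first start, 118 bp upstream of the second and 454 bp upstream of the third. These starts are associated with dendritic and myeloid cells, with lymphoid cells and with the response to interferon-γ, respectively. MAC C/EBPβ had a peak centred 502 bp upstream of the third start, which overlapped the PU.1 peak there, and a peak without PU.1 centred 1113 bp upstream of the second. Its peak closest to the first start lay 3478 bp upstream. HP PU.1 had no peak within 2 kb of any of the 3 starts, and the closest was 6428 bp downstream of the third start.

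The 3 HP PU.1 peaks in the Ciita window were centred 16137, 56460 and 65176 bp downstream of the first start. The first of these lies in an intron of Ciita. The other two lie beyond the end of the gene, in an intron of Dexi and 91 bp from the start of Clec16a. All 3 overlapped a MAC PU.1 peak. Of the 15 MAC PU.1 peaks, 11 had a Ciita start as the closest coding start, 3 that of Dexi and 1 that of Clec16a, and of the 5 MAC C/EBPβ peaks 4 were closest to Ciita and 1 to Dexi. Of the 15 MAC PU.1 peaks, 2 overlapped MAC C/EBPβ, at the third start and in an intron 20813 bp downstream of the first start. In the whole MAC PU.1 list, 28.5% of peaks did so.

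**Figure D3:**
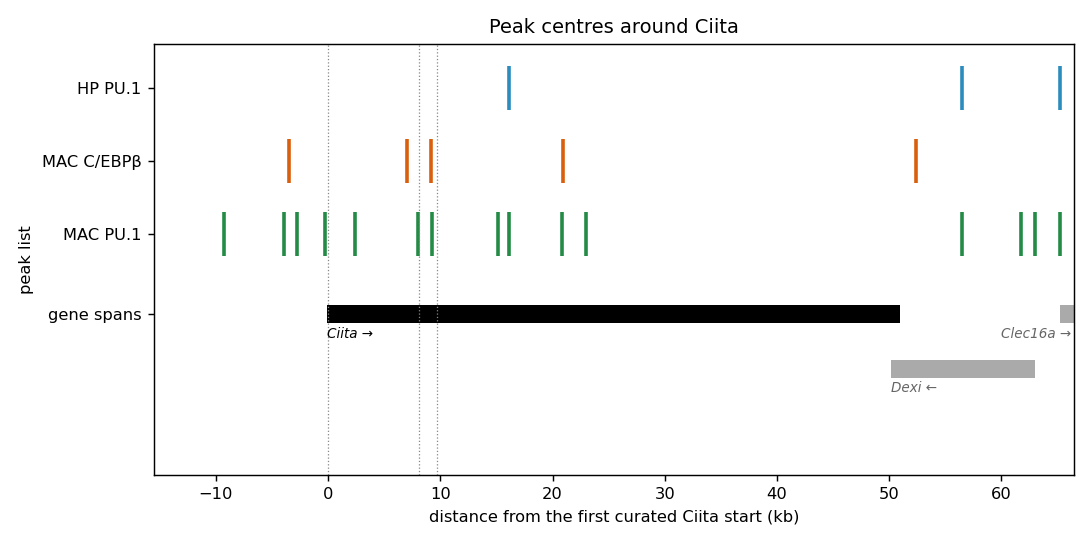
Peak centres in the Ciita window by distance from the first curated start (kb), 1 row per list, with gene spans below, arrows for the strand and dotted lines at the 3 curated starts. The 15 MAC PU.1 peaks lie from 9304 bp upstream to 65174 bp downstream, with centres next to each dotted line, and the 3 HP PU.1 peaks lie downstream of all 3 starts.

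Sequences of 3 Ciita peaks are shown because they are the sites that PU.1 occupied in both HP and MAC, or together with C/EBPβ in MAC, away from the promoters. They are read from the forward strand of GRCm38 around the centre of the MAC PU.1 peak, at chr16:10500826-10500945, chr16:10496143-10496262 and chr16:10536475-10536594, and hold no annotated exon. Capitals mark a match to GAGGAAGT (PU.1), to its shorter form AGGAAGT, or to the C/EBP, RUNX, GATA, AP-1 and combined ETS-IRF letters given further on. The intronic site shared with C/EBPβ holds the full PU.1 letters, the downstream site held in HP and MAC holds the shorter form, and the intronic site held in HP and MAC shows none of these matches in the stretch.
Ciita intron, MAC PU.1 and C/EBPβ: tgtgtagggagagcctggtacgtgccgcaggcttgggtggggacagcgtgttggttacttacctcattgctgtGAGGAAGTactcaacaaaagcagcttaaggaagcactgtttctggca
Ciita intron, HP and MAC PU.1: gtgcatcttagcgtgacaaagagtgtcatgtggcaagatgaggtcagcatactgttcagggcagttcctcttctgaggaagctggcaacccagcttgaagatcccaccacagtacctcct
Ciita downstream in Dexi, HP and MAC PU.1: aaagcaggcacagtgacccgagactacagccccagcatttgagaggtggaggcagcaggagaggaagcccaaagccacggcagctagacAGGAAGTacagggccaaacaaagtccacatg

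Rfx5, the subunit of RFX that contacts the X box, had 3 MAC PU.1 and 2 MAC C/EBPβ peaks in its window. A peak of each factor overlapped at the promoter, centred 169 and 205 bp upstream of the first curated start (94954108 on chromosome 3). The other MAC C/EBPβ peak lay 4232 bp upstream. The other 2 MAC PU.1 peaks were nearest to the start of the neighbour Pi4kb, at distances of 106 and 541 bp. The closest HP PU.1 peak lay 102189 bp upstream of the Rfx5 start.

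The antigen-binding chains H2-Ab1 and H2-Aa (β and α chain of I-A) and H2-Eb1 (β chain of I-E) share a block of windows at chr17:34248227-34331674, in which HP PU.1 had no peak. At H2-Ab1, MAC C/EBPβ had a peak centred 119 bp upstream of the start at 34263227, without PU.1. The closest MAC PU.1 peak lay 5537 bp upstream, and a peak of each factor overlapped 14253 and 14308 bp upstream, closer to H2-Ob. At H2-Aa, on the reverse strand with its start at 34287823, MAC PU.1 had a peak in an intron 1125 bp downstream of the start. A second MAC PU.1 peak, 5918 bp upstream, overlapped a MAC C/EBPβ peak centred 5816 bp upstream. H2-Eb1, with its start at 34305867, had no MAC peak of either factor within 2 kb. Its window held MAC PU.1 peaks in introns 6617 and 9894 bp downstream of the start, and 2 further ones closer to H2-Eb2, 11660 and 19451 bp downstream. MAC C/EBPβ had a peak 7118 bp upstream of H2-Eb1, and the upstream H2-Aa site was also inside the H2-Eb1 window.

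The H2-Aa upstream site (chr17:34293652-34293831, forward strand) is printed because both macrophage factors overlapped there and it lay in the windows of H2-Aa and H2-Eb1. Capitals mark the PU.1 letters, here on the reverse strand, and the AP-1 letters TGANTCA. The promoters of H2-Aa (chr17:34287824-34287943, reverse strand) and H2-Eb1 (chr17:34305747-34305866, forward strand), printed on the strand of the gene up to the last base before the start, show the Y box CTGATTGG in capitals, and that of H2-Eb1 also the X box core TAGCAAC, which was not found in the H2-Aa stretch. They come from the RefSeq promoter table of GRCm38, which held H2-Aa, H2-Eb1, H2-DMa, H2-DMb1 and Rfx5.
H2-Aa upstream, MAC PU.1 and C/EBPβ: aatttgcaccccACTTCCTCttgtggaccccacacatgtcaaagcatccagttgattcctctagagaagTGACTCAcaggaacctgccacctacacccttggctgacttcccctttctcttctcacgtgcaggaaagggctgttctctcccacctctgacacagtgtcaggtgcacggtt
H2-Aa promoter: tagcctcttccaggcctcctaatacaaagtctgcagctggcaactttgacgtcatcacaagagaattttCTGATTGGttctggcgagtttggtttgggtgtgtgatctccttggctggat
H2-Eb1 promoter: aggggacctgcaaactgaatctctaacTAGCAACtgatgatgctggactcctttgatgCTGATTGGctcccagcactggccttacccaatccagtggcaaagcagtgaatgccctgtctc

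The Y box of H2-Aa began 51 bases upstream of its start, and the X box core and Y box of H2-Eb1 began 93 and 62 bases upstream. Both strands of 300 bases of promoter, from 250 before to 50 after the start, were searched. TAGCAAC was found in 3.68%, CTGATTGG in 4.85% and both in 0.169% of 21263 coding promoters. Neither was found in the promoter stretches of H2-DMa, H2-DMb1 and Rfx5. As the search allowed no mismatch, this does not show that X or Y boxes are absent there, or that H2-Aa lacks an X box. Among peaks at the class II genes, CTGATTGG was in 1 of the 22 MAC C/EBPβ peaks, that at the H2-Ab1 start (4.55%, against 1.73% of the list), and in 0 of the 47 MAC PU.1 peaks (1.68% of the list). TAGCAAC was in 3 of the 22 MAC C/EBPβ peaks (13.6%, exact 95% interval 2.91 to 34.9, against 4.98% of the list) and in 3 of the 47 MAC PU.1 peaks (6.38%, 1.34 to 17.5, against 4.01%). These MAC C/EBPβ peaks lay 3478 bp upstream of the first Ciita start, in an intron of Ciita and in an intron of Brd2. The MAC PU.1 peaks lay in a coding exon of Brd2, at the same site in the Brd2 intron and in an intron of H2-DMa.

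Cd74, the invariant chain that guides class II molecules to the endosome and fills their groove until peptide is loaded, lies at chr18:60803849-60812652. MAC PU.1 had a peak 134 bp upstream of its start, 4 peaks within introns of the gene between 533 and 5048 bp downstream, and 5 peaks further upstream. The intronic site 3581 bp downstream was shared with HP PU.1, whose centre lay 3573 bp downstream. MAC C/EBPβ peaks were centred 764, 1805, 8550 and 11701 bp upstream. Those at 8550 and 11701 bp overlapped PU.1, and those nearer to the start did not. Of the 10 MAC PU.1 peaks, 9 had Cd74 as the closest coding start and 1 had Rps14.

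H2-DMa and H2-DMb1 encode the chains of H2-DM, which exchanges the invariant chain fragment for peptide. Their windows form a block at chr17:34104693-34175229. H2-DMa was the only one of the 8 genes with peaks in 4 lists. A region 2 kb into the gene was occupied in HP PU.1, MAC PU.1 and MAC C/EBPβ, with centres 1989, 1988 and 2026 bp downstream of the first curated start (34122832). It lay 697 bp upstream of the second curated start for HP PU.1. A further MAC PU.1 and C/EBPβ pair overlapped 828 and 857 bp downstream of the first start. The HP GFI1B peak was centred 1602 bp upstream of H2-DMa but 517 bp from the start of Brd2, a neighbour transcribed in the opposite direction, and 3 of the 7 MAC PU.1 peaks were also closest to Brd2. MAC C/EBPβ had 2 peaks without PU.1 10665 and 11809 bp downstream of the first start. GENCODE places further H2-DMa starts at 34135628 and 34135654, and the latter of these 2 peaks was 987 bp upstream of the former start. The assignment of the peak 11809 bp downstream to the body or the promoter of H2-DMa therefore depends on the annotation.

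H2-DMb1, with its start at 34153191, had no MAC peak of either factor within 2 kb of it. The closest MAC PU.1 peak was in an intron 3967 bp downstream and the closest MAC C/EBPβ peak 9973 bp upstream, where it overlapped PU.1 centred 10052 bp upstream, closer to the start of H2-DMb2 than to that of H2-DMb1. Both factors overlapped again 21006 and 21086 bp downstream of the start, in intergenic sequence closest to Psmb9. The upstream site (chr17:34143080-34143199, forward strand) is printed because it lay in the windows of both H2-DM genes. Capitals mark the ETS-IRF letters GGAANNGAA, a composite that PU.1 can share with an interferon regulatory factor.
H2-DMb1 upstream, MAC PU.1 and C/EBPβ: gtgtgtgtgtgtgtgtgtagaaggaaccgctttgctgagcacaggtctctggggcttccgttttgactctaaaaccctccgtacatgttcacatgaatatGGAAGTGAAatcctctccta

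**Figure D4:**
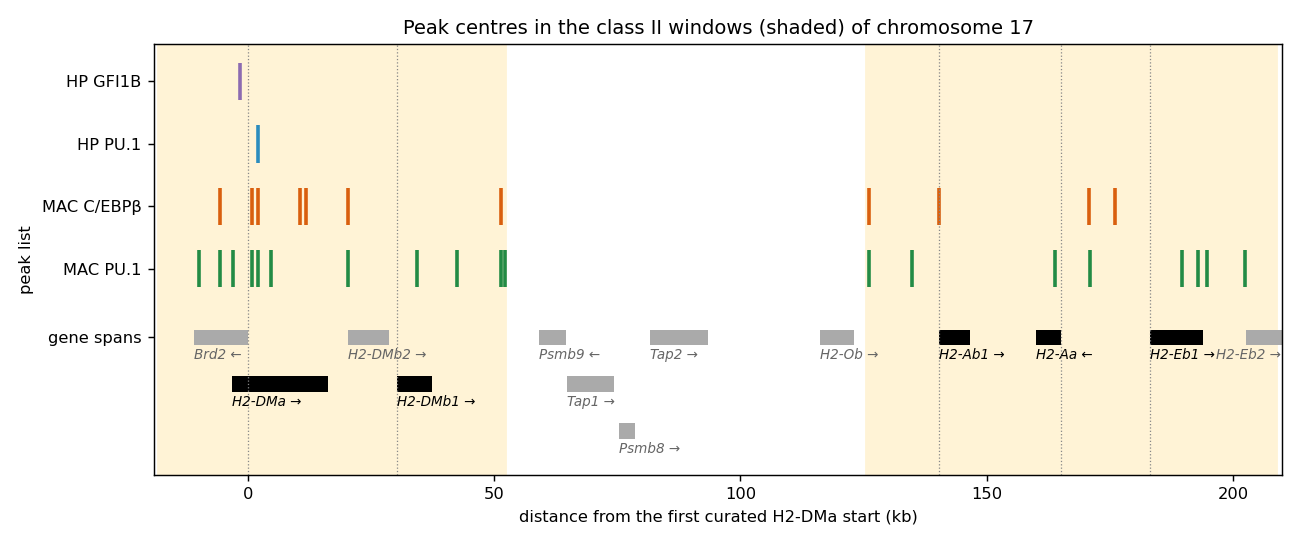
Peak centres in the class II windows of chromosome 17 (shaded) by distance from the first curated H2-DMa start (kb), 1 row per list, with the class II genes in black, other coding genes in grey, arrows for the strand and dotted lines at the class II starts. Peaks were counted in the shaded blocks only, which hold 19 MAC PU.1, 11 MAC C/EBPβ, 1 HP PU.1 and 1 HP GFI1B peak.

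Within 2 kb of a curated start, MAC PU.1 had a peak centre at 5 of the 8 genes (Ciita, Cd74, H2-Aa, H2-DMa and Rfx5), where 50.0% of coding genes had one. MAC C/EBPβ also had one at 5 genes (Ciita, Cd74, H2-Ab1, H2-DMa and Rfx5), against 36.6%. HP PU.1 had one at H2-DMa alone, against 9.40%. With 8 genes, the PU.1 shares are near the background. The C/EBPβ share is further from it, but with 8 genes this was not tested. Counted by peaks, 16 of the 47 MAC PU.1 peaks (34.0%, 20.9 to 49.3) had a centre within 2 kb of any coding start, 9 of them of a class II start, against 18.1% of the whole list. For MAC C/EBPβ this held for 8 of 22 peaks (36.4%, 17.2 to 59.3), all at class II starts, against 16.4%. Both intervals lie above the share of the list, but the windows are drawn around genes whereas the lists cover the whole genome. By annotation, 23 of the 47 MAC PU.1 peaks were intergenic, 18 were in introns of the class II genes, 5 in introns of neighbours and 1 in a coding exon of Brd2. Of the 22 MAC C/EBPβ peaks, 13 were intergenic and 7 in introns of the class II genes.

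To compare occupancy between lists, peaks that overlapped by at least 1 bp were merged, which gave 58 regions at the 8 genes. MAC PU.1 alone held 31 of them (53.4%, against 44.1% of all merged regions), and MAC PU.1 with MAC C/EBPβ held 11 (19.0% against 15.4%). MAC C/EBPβ alone held 10 (17.2% against 25.8%), and HP PU.1 with MAC PU.1 held 4 (6.90% against 5.48%). HP GFI1B alone held 1 (1.72% against 0.788%), and the H2-DMa region was held in HP PU.1, MAC PU.1 and MAC C/EBPβ (1.72% against 2.86%). All 5 HP PU.1 peaks overlapped a MAC PU.1 peak (100%, exact Clopper-Pearson 95% interval 47.8 to 100), as did 97.0% of the whole HP PU.1 list. In return, 10.6% of the 47 MAC PU.1 peaks (3.55 to 23.1) overlapped an HP PU.1 peak, against 12.8% of the whole MAC PU.1 list. The intervals cover counting error only. Centres of the 5 HP and MAC PU.1 pairs lay 1 to 8 bp apart with a median of 2 bp, against a median of 13 bp over 10612 pairs of the whole list.

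MAC PU.1 and MAC C/EBPβ overlapped at 12 sites of the class II genes. This was 25.5% (13.9 to 40.3) of the MAC PU.1 peaks against 28.5% of the whole list, and 54.5% (32.2 to 75.6) of the MAC C/EBPβ peaks against 42.5%. Both intervals contain the share of the whole list. By extended window, H2-DMa held the most such sites, at 4 of its 7 MAC PU.1 peaks, and every gene held at least 1. A site in overlapping windows counts for each gene here. Of the H2-DMa sites, one was closest to the start of Brd2 and another to that of H2-DMb2. The H2-Ab1 site was closest to H2-Ob, the H2-Eb1 site to H2-Aa, and the H2-DMb1 sites to H2-DMb2 and Psmb9. The centres lay 4 to 102 bp apart with a median of 44 bp, against 65 bp over the whole list.

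The letters of known binding sites were then searched on both strands of each peak. TTGCNNAA, the C/EBP letters, were in 1 of the 22 MAC C/EBPβ peaks (4.55%, 0.115 to 22.8) but in 41.9% of the whole list. The peak that held them lay in an intron of Dexi, 52347 bp downstream of the first Ciita start. Among the 12 that overlapped MAC PU.1 none held the letters, where 34.2% of such peaks in the whole list did, and among the 10 without PU.1 1 did, against 47.6%. With up to 1 mismatch the letters were in all 22 and in 98.7% of the whole list, so the looser search does not separate peaks.

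GAGGAAGT, the PU.1 letters, were in 7 of the 47 MAC PU.1 peaks (14.9%, 6.20 to 28.3) and in 24.4% of the whole list, and in 0 of the 5 HP PU.1 peaks (an upper limit of 52.2%) and 42.1% of that list. Cd74 held 3 of the 7 and Ciita 2. GGAANNGAA, the ETS-IRF letters, were in 14 of the 47 MAC PU.1 peaks (29.8%, 17.3 to 44.9) and in 19.0% of the whole list. Cd74 held 5 of these, among them the peak 134 bp upstream of its start, and Ciita 3, among them the peaks next to the second and the third of its starts. The remaining such peak in the Ciita window was closest to the start of Clec16a. The H2-DMa window also held 3, which were closest to the starts of Brd2 or H2-DMb2. For PU.1 and ETS-IRF in MAC the intervals contain the share of the whole list. For C/EBP the interval lies below it. The AP-1 letters TGANTCA were in 14.9% of MAC PU.1 and 22.7% of MAC C/EBPβ peaks of the class II genes, against 15.8% and 23.3% of the lists. TGTGGTT, the letters for RUNX, was in 12.8% of the MAC PU.1 and 22.7% of the MAC C/EBPβ peaks, against 10.3% and 11.1% of the lists. For GATA factors the letters AGATAA were in 8.51% and 4.55%, against 17.3% and 17.5%. All of these intervals contain the share of the list. The ETS-IRF and PU.1 letters can overlap at the same bases.

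**Figure D5:**
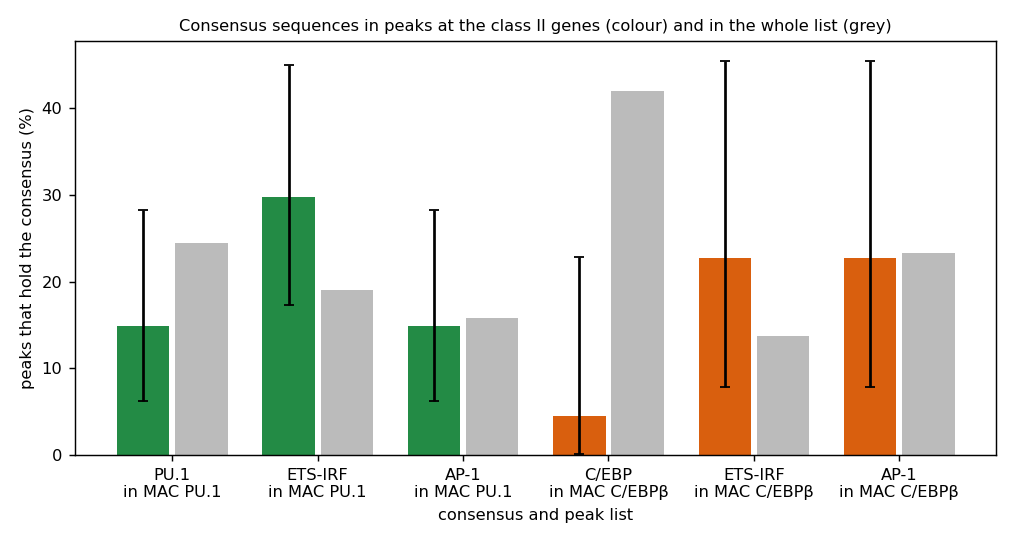
Share of peaks that hold each set of letters (%), for the 47 MAC PU.1 and 22 MAC C/EBPβ peaks at the class II genes (coloured bars, with exact 95% intervals for counting error) and for the whole lists (grey bars). The C/EBP letters are at 4.55% in the MAC C/EBPβ peaks of these genes and 41.9% in the list, and the other intervals include the grey bar.

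Among 15 further genes of class II presentation (chaperones and relatives H2-DMb2, H2-Oa, H2-Ob and H2-Eb2, promoter-binding subunits Rfxap, Rfxank, Nfya, Nfyb, Nfyc and Creb1, lysosomal enzymes Ctss, Ctsl, Lgmn and Ifi30, and the ubiquitin ligase March1), all 15 had a MAC PU.1 peak (77.6% of coding genes), 14 a MAC C/EBPβ peak (71.2%) and 10 an HP PU.1 peak (34.8%). The median counts were 6, 4 and 1. Lgmn, an endosomal protease, had 15 MAC PU.1 and 16 MAC C/EBPβ peaks, and Ifi30, a thiol reductase of the endosome, had 10 and 7. Within 2 kb of a start, 13 of the 15 had MAC PU.1 (50.0% of coding genes), 9 had MAC C/EBPβ (36.6%) and 3 had HP PU.1 (9.40%). Lgmn had peaks in 7 of the 14 lists and Ifi30 in 6, and the other 13, like the 8 class II genes, had peaks in 2 to 4. H2-Oa, H2-Ob, H2-DMb2 and H2-Eb2 lie next to the class II genes and some of their windows share the same peaks.

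The profile of peak counts over the 14 lists was compared with those of 21753 coding genes outside the windows, as the sum of absolute differences in counts. For Ciita the closest were Arhgap27, Hcfc2 and Socs3, each at a sum of 1. For H2-DMa the closest were Fam214b, Tbl2 and Virma, at a sum of 0. For the other class II genes more than 5 coding genes tied at a sum of 0, from 13 for Cd74 to 324 for H2-Aa and H2-Ab1, and none is named. The same lists as for Ciita and Cd74 (HP PU.1, MAC C/EBPβ and MAC PU.1, and no other) held peaks at 16.3% of coding genes. MAC PU.1 and MAC C/EBPβ alone, as at H2-Aa, H2-Ab1, H2-Eb1, H2-DMb1 and Rfx5, did so at 23.8%, and the 4 lists with a peak at H2-DMa, and no other, at 2.59%.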

How the data were processed

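Binding sites were analysed as deposited, as peak positions in base pairs on mm10 (GRCm38), with no score or count. As its methods state, reads were trimmed by the authors with CutAdapt, aligned with Bowtie, limited to unique positions and stripped of duplicates with Picard, and technical runs of some samples were merged. MACS peaks against the stage input, at thresholds judged by eye, were refined with polyPeak and standardised to 400 bp around summits. Mouse mRNA and histone 2B were added as carriers for HE. The labels also name bedtools. Tool versions are not given in the sources used here, and the read totals that the study tabulates were not used here.

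Peaks were counted in RefSeq gene spans (GCF_000001635.26) extended by 15 kb, beside the same count over 21774 coding genes. Starts were those of curated transcripts (predicted where a gene had none, 26906 in all). Promoter-proximal peaks had a centre within 2 kb. Distances run from peak centre to start, and GENCODE starts were set beside the RefSeq ones and are given for H2-DMa. Exact Clopper-Pearson intervals cover 95% and counting error only. The genes named are all 8 members, the 15 pathway genes and neighbours by closest start, with up to 5 tied genes named for likeness. The members and lists were chosen with earlier results of these data known. Alternatives changed window, overlap, gene set and letters. 1 mitochondrial HP PU.1 peak stayed in the list totals but was assigned to no gene and not searched for letters. Counting, overlap and merging were tested on simulated peaks. Python 3.11.15, NumPy 2.4.6, SciPy 1.17.1, Matplotlib 3.10.9 and samtools 1.23.1 were used.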

Additional observations from a re-analysis of the deposited data

How the results depend on the processing

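Of 41 alternative values, 21 counts stayed within 1.5 times the main count, 17 counts did not, and 3 shares of genes left their counting interval. The 20 combinations of gene and list with a peak were 15, 16 and 24 with the gene spans alone, 5 kb and 50 kb, and 18 by the closest start. Peak counts moved more with the window. MAC PU.1 had 21 peaks in the gene spans alone, 28 with 5 kb and 89 with 50 kb on each side, and 31 when each peak went to the closest coding start. MAC C/EBPβ had 9 in the spans and 51 with 50 kb, but 16 with 5 kb and 17 by the closest start. HP PU.1 had 3 in the spans, 3 with 5 kb, 10 with 50 kb and 3 by the closest start, and 3 genes had HP and MAC PU.1 in every setting but 50 kb, where 5 did. The other lists had 2 with 50 kb and 0 by the closest start. Over all annotated genes the background was 24.7% for HP PU.1, 57.5% for MAC C/EBPβ and 64.4% for MAC PU.1. With AGGAAGT, 15 MAC PU.1 peaks matched (31.9%, 19.1 to 47.1), against 45.3% of the whole list. For HP PU.1, 2 peaks matched (40%, 5.27 to 85.3), against 61.6% of that list. In settings chosen after seeing the data, the C/EBP letters were in 22 MAC C/EBPβ peaks with up to 1 mismatch and in 0 of the 17 with a class II start as the closest. A minimum overlap of 200 bp changed no shared count. Single lists without replicates or peak heights, and thresholds set by eye, limit every comparison between stages.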
